A study of Arabidopsis thaliana with 8 samples.

Results

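The genes described here are the 57 whose signal was higher in bright than in dim red light in each of 4 same-numbered pairs of arrays. They were taken from 691 genes that the platform annotation puts alone on a probe. The plants were wild-type Arabidopsis thaliana of the Landsberg ecotype, and total RNA was measured on 4 arrays from plants kept for 48 hours at 20 µE of red light and on 4 arrays from plants kept for 48 hours at 200 µE. All plants shared that genotype, and the labels give no tissue, age or area unit for the light. The labels do not say whether replicates are different plants, so their spread may be technical, and any p-value refers to that spread alone.

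A probe became a member when its annotation named 1 gene, when all 8 deposited intensities were above 0, when it was outside the top 10% of such probes by mean deposited intensity, and when the log2 difference, 200 µE minus 20 µE after quantile normalization, was above 0.25 in all 4 replicate numbers. Quantile normalization gives every array the same distribution of values, so each difference is measured against the rest of the array. Of 692 single-gene probes, 155 were listed at 0 on some array and could not become members, and 54 more were too bright, which left 483. Of these, 60 passed the threshold, and 3 of them (AT3G52960, NTRC and AT1G01080) were left out by name. The light difference itself chose the genes, so its size is given as a description and no test of it is offered.

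Plants sense red light through the phytochromes, photoreceptors that move between an inactive and an active form, and chlorophyll also absorbs red light to drive photosynthesis. The light level therefore reaches the cell both as a developmental signal and as an energy supply. Much of the answer lies in nuclear genes for chloroplast proteins, which are made in the cytosol, imported, and built into photosynthetic complexes together with proteins encoded by the plastid's own genome. Building these complexes takes pigments, assembly factors, proteases and RNA-binding proteins that act on plastid transcripts.

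The arrays differed in their median deposited intensity. The maximum was 100 on every array, so the medians are relative to it and do not measure overall brightness. The median deposited intensity of probes above 0 ran from 0.267 to 0.345 at 20 µE and from 0.513 to 0.578 at 200 µE. The arrays of replicates 1 and 2 were unlike those of replicates 3 and 4 at both light levels, a split seen in the data that the labels do not name, so values are given for both sets where they differ. The 4 green-tissue markers chosen for a check of the tissue were LHB1B2, PSAN, PSBY and PRK. All 4 were above 0 on all arrays, as were 2600 of the 3439 probes. Their lowest percentiles of deposited intensity on any array were 97.9, 94.3, 91.1 and 69.5. Their log2 differences were −1.15, −0.15, 0.35 and −0.05, which do not identify a tissue. The 5 markers of roots and senescent leaves were on no single-gene probe and could not be read. A smaller share of a cell type and less RNA per cell cannot be told apart in such bulk samples.

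The 57 genes had a median log2 difference of 0.68, with a range of 0.30 (AT1G53260) to 1.47 (AT2G27630). For 9 genes the mean difference was at least 1, a doubling of the normalized intensity, for 39 it lay between 0.5 and 1, and for 9 it was below 0.5. The median over the 2600 probes above 0 on all arrays was −0.04. Among those 2600 probes 298, or 11.5%, had all 4 pair differences above 0.25, against 12.4% of the 483 probes from which the members came. The members' share is thus near the background of the array. The opposite pattern, all 4 differences below −0.25, was seen on 16.9% of the 2600 probes and on 15.1% of the 483.

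**Figure D1:**
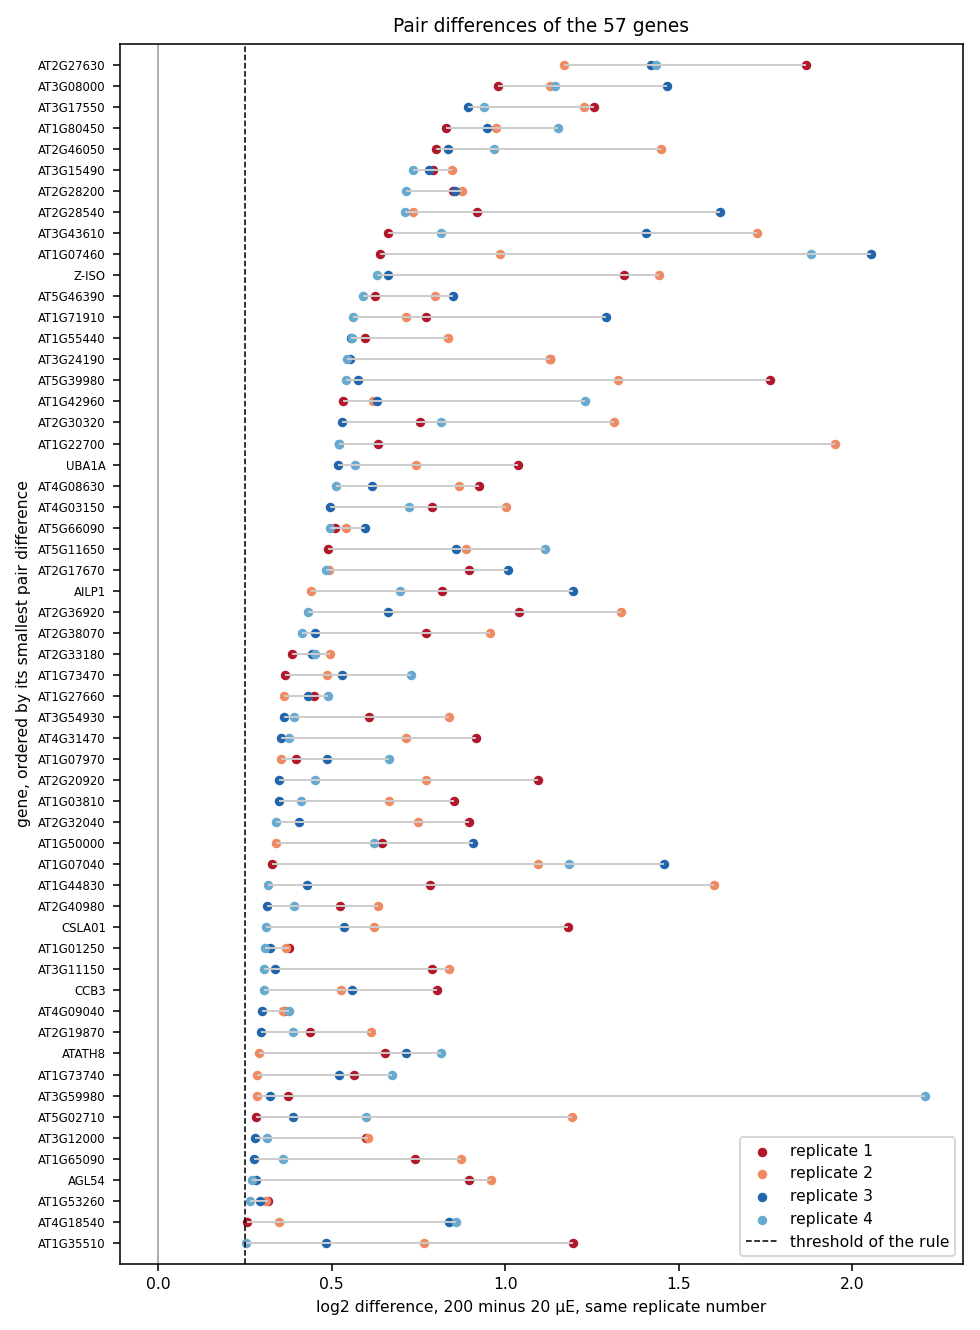
Log2 difference between 200 and 20 µE (x axis) for each of the 57 genes (y axis, ordered by the smallest of their 4 differences), with 1 point per replicate number, a grey line over the range and a dashed line at the threshold of 0.25. The points of AT1G53260 nearly coincide, while AT3G59980 has 1 point at 2.21 and the others near the threshold.

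The 4 genes with the largest smallest pair difference lay farthest from the threshold. AT2G27630 had a normalized intensity of 0.0516, 0.0674, 0.125 and 0.0971 in replicates 1 to 4 at 20 µE and of 0.188, 0.152, 0.335 and 0.262 at 200 µE. Its pair differences were 1.87, 1.17, 1.42 and 1.43, with a mean of 1.47 ± 0.29 (SD, n = 4 pairs), and no array at 20 µE reached the lowest at 200 µE. AT3G08000, which encodes a protein with an RNA recognition motif, had 0.123, 0.123, 0.212 and 0.274 at 20 µE and 0.242, 0.269, 0.584 and 0.607 at 200 µE. Replicates 3 and 4 of that gene were brighter at both light levels, so the groups overlapped although every pair differed by at least 0.98. AT3G17550, a gene for a haloacid dehalogenase-like hydrolase, averaged 0.522 ± 0.198 (SD, n = 4) in dim light and 1.07 ± 0.283 (SD, n = 4) in bright light. The single values were 0.329, 0.376, 0.66 and 0.723 at 20 µE and 0.786, 0.879, 1.22 and 1.39 at 200 µE, with no overlap. AT1G80450, which encodes a VQ-motif protein of a family that binds WRKY transcription factors, had 0.211, 0.18, 0.0742 and 0.071 at 20 µE and 0.376, 0.353, 0.143 and 0.158 at 200 µE. Here replicates 1 and 2 were the brighter ones, and the groups overlapped.

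At the threshold itself, the last members inside were AT1G35510, with a smallest pair difference of 0.254, AT4G18540 with 0.258 and AT1G53260 with 0.266. The first genes outside were AT2G48090 at 0.246, AT4G17440 at 0.246 and AT2G14660 at 0.244. AT2G48090 was missed by pair 3 alone, since its mean difference was 1.04 and its first pair reached 1.77. AT1G35510, a gene of the O-fucosyltransferase family, had 0.275, 0.411, 0.345 and 0.445 at 20 µE and 0.631, 0.699, 0.482 and 0.531 at 200 µE, and its pair differences ranged from 0.25 in pair 4 to 1.20 in pair 1. For AT2G48090 and AT1G35510 a single pair thus lay next to the threshold. AT4G18540 had 0.343, 0.296, 0.27 and 0.29 at 20 µE and 0.41, 0.377, 0.483 and 0.525 at 200 µE, with no overlap.

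Textbook knowledge gave a role for 34 of the 57 genes, and they were grouped by it after their values were known. The groups held 7 genes of the chloroplast, 9 of RNA binding and modification, 6 of transcription and 12 with other roles. Their median log2 differences were 0.72, 0.85, 0.69 and 0.73, and that of the 23 genes with no role given here was 0.63. The ranges of the groups overlapped widely, and no group is singled out by these values.

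Among the chloroplast genes, the largest mean difference was that of Z-ISO, which encodes the 15-cis-zeta-carotene isomerase of carotenoid synthesis. Z-ISO had a normalized intensity of 0.265, 0.274, 0.498 and 0.573 at 20 µE and of 0.671, 0.746, 0.788 and 0.887 at 200 µE. The groups did not overlap, with means of 0.402 ± 0.157 (SD, n = 4) in dim and 0.773 ± 0.09 (SD, n = 4) in bright light. By pairs, taken from the mean log2 difference, the difference was 2.03-fold. The pair differences fell into 2 classes, 1.34 and 1.44 in replicates 1 and 2 against 0.66 and 0.63 in replicates 3 and 4. The arrays at 200 µE lay closer together than those at 20 µE, where replicates 1 and 2 were low.

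Assembly of the photosynthetic complexes was represented by AT1G22700 and CCB3. AT1G22700 encodes PYG7, a tetratricopeptide repeat protein needed for photosystem I to accumulate, and it had 1.40, 0.2, 1.09 and 1.01 at 20 µE and 2.17, 0.773, 1.56 and 1.45 at 200 µE. Replicate 2 was far below the others at both light levels, and its pair difference of 1.95 stood against 0.63, 0.52 and 0.52 in the other pairs. CCB3, a factor for attaching a cofactor to the cytochrome b6f complex, had 0.263, 0.308, 0.414 and 0.415 at 20 µE and 0.459, 0.444, 0.609 and 0.512 at 200 µE. All 4 values of CCB3 at 200 µE were above all 4 at 20 µE, and by pairs the difference was 1.46-fold.

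Protein processing and membrane functions of the plastid accounted for the other chloroplast genes. AT5G46390 belongs to the C-terminal processing peptidases, the family that trims the D1 protein of photosystem II, and its intensity was 0.186, 0.129, 0.284 and 0.31 at 20 µE and 0.287, 0.224, 0.511 and 0.467 at 200 µE. Its 4 pair differences lay between 0.59 and 0.85, yet the groups overlapped because replicates 3 and 4 were brighter by 0.94 on the log2 scale. AT3G24190 and ATATH8 both encode kinases of the ABC1-like family, whose members sit in plastoglobules and other organelle membranes. AT3G24190 had 0.43, 0.433, 1.01 and 0.943 at 20 µE and 0.942, 0.946, 1.48 and 1.38 at 200 µE, with pair differences of 1.13 and 1.13 in replicates 1 and 2 and of 0.55 and 0.54 in replicates 3 and 4. ATATH8 had 0.165, 0.198, 0.171 and 0.277 at 20 µE and 0.26, 0.242, 0.281 and 0.488 at 200 µE. Its pair differences had the opposite order, 0.66 and 0.29 in replicates 1 and 2 and 0.71 and 0.82 in replicates 3 and 4. AT2G32040, of the folate and biopterin transporter family of the plastid envelope, had 0.544, 0.831, 1.36 and 1.53 at 20 µE and 1.01, 1.40, 1.80 and 1.94 at 200 µE. Its groups overlapped, with means of 1.07 ± 0.459 (SD, n = 4) and 1.54 ± 0.42 (SD, n = 4), and by pairs the difference was 1.51-fold.

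**Figure D2:**
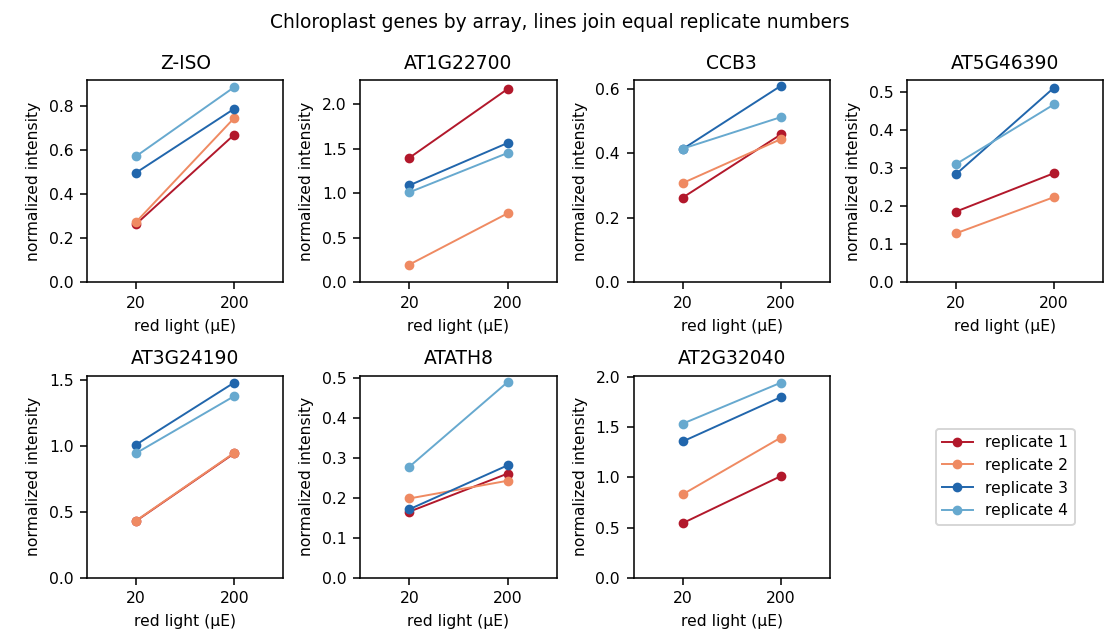
Normalized intensity (y axis, linear and starting at 0) at 20 and 200 µE (x axis) for the 7 chloroplast genes, with 1 line per replicate number. Every line climbs; for Z-ISO and CCB3 the groups do not overlap, and for AT1G22700 replicate 2 lies below the others at both light levels.

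RNA-binding and RNA-modifying proteins gave differences from 0.35 (AT4G09040) to 1.18 (AT3G08000). AT2G46050 and AT5G39980 encode pentatricopeptide repeat proteins, which bind single organelle transcripts. AT2G46050 had 1.21, 0.591, 0.475 and 0.475 at 20 µE and 2.11, 1.61, 0.847 and 0.929 at 200 µE, so that replicate 1 at 20 µE was above replicates 3 and 4 at 200 µE. AT5G39980 had pair differences of 1.76 and 1.33 in replicates 1 and 2 and of 0.58 and 0.54 in replicates 3 and 4. AT2G17670, whose protein carries repeats of the same broad class, had 0.90, 0.49, 1.01 and 0.48. Of these 3 repeat proteins none separated the light levels completely.

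The RNA recognition motif was shared by AT3G08000, AT2G28540, UBA1A and AT4G09040. UBA1A, which encodes a partner of the oligouridylate-binding protein UBP1, had 0.549, 0.631, 0.524 and 0.484 at 20 µE and 1.13, 1.06, 0.751 and 0.717 at 200 µE, with no overlap. AT4G09040 had 0.5, 0.488, 0.412 and 0.430 at 20 µE and 0.644, 0.626, 0.507 and 0.558 at 200 µE. Its 1.27-fold difference was small but even, with pair differences from 0.30 to 0.38, and its groups did not overlap. AT2G28540 was uneven, with 1.62 in pair 3 against 0.71 to 0.92 in the others. The pseudouridine synthase gene AT2G30320 differed by 0.85 ± 0.33 (SD, n = 4 pairs) and the tRNA/rRNA methyltransferase gene AT2G19870 by 0.43 ± 0.13 (SD, n = 4 pairs), and the groups of both overlapped.

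The regulators of transcription included a zinc finger gene, AT2G28200, with pair differences of 0.85, 0.88, 0.86 and 0.72. Its intensity was 0.218, 0.228, 0.154 and 0.146 at 20 µE and 0.392, 0.418, 0.278 and 0.239 at 200 µE, with no overlap. AT1G44830 and AT1G01250 both encode AP2/ERF factors, and they differed in how even their pairs were. AT1G44830 ranged from 0.32 in pair 4 to 1.60 in pair 2, whereas AT1G01250 stayed between 0.31 and 0.38. AT1G01250 had 1.0, 0.986, 1.35 and 1.31 at 20 µE and 1.30, 1.27, 1.69 and 1.62 at 200 µE, so the groups overlapped. The basic helix-loop-helix gene AT1G27660 differed by 0.43 ± 0.05 (SD, n = 4 pairs). AGL54, a MADS-box gene, had 0.765, 0.689, 0.67 and 0.672 at 20 µE and 1.42, 1.34, 0.815 and 0.81 at 200 µE. At 200 µE its replicates 1 and 2 were well above replicates 3 and 4, while at 20 µE all 4 arrays were close.

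Genes with other roles covered signalling, trafficking and the cell wall. AT3G54930 encodes a regulatory B′ subunit of protein phosphatase 2A and had 0.615, 0.538, 0.553 and 0.557 at 20 µE and 0.937, 0.961, 0.711 and 0.732 at 200 µE. AT3G15490, for an IST1-like protein of the multivesicular body pathway, had 0.356, 0.355, 0.5 and 0.49 at 20 µE and 0.617, 0.639, 0.859 and 0.816 at 200 µE. Neither gene's groups overlapped, and the pair differences of AT3G15490 were the more even, between 0.73 and 0.85. AT3G43610, of the gamma-tubulin complex component family that nucleates microtubules, differed by 1.15 ± 0.50 (SD, n = 4 pairs). CSLA01, a cellulose synthase-like gene of the family that makes mannans, differed by 0.66 ± 0.37 (SD, n = 4 pairs), with 1.18 in pair 1 and 0.31 in pair 4. AT1G07460, for a lectin-like protein, had 0.207, 0.169, 0.0816 and 0.0955 at 20 µE and 0.323, 0.334, 0.339 and 0.352 at 200 µE. Its arrays at 200 µE were nearly equal, so its pair differences of 0.64, 0.99, 2.05 and 1.88 followed the values at 20 µE. The kinase gene AT2G40980, the secretory PR1-like gene AT4G31470, the hydrolase gene AT5G11650, the oxygenase gene AT3G11150 and the aluminium-induced AILP1 had mean differences of 0.47, 0.59, 0.84, 0.57 and 0.79.

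The genes with no role given here included the brightest and the dimmest probes of the 57. AT5G66090, on the brightest, had 0.96, 0.948, 1.26 and 1.21 at 20 µE and 1.37, 1.38, 1.90 and 1.71 at 200 µE, with no overlap and pair differences from 0.50 to 0.60. AT2G38070, on the dimmest, had 0.133, 0.0966, 0.0455 and 0.0589 at 20 µE and 0.226, 0.187, 0.0623 and 0.0786 at 200 µE. Replicates 1 and 2 of AT2G38070 at 20 µE were above replicates 3 and 4 at 200 µE. The evenest gene of all was AT1G53260, with 0.332, 0.293, 0.151 and 0.11 at 20 µE and 0.414, 0.363, 0.185 and 0.133 at 200 µE. Its pair differences were 0.32, 0.31, 0.30 and 0.27, all near the threshold, while its groups overlapped. The most uneven was AT3G59980. AT3G59980 had 0.316, 0.356, 0.123 and 0.0291 at 20 µE and 0.41, 0.434, 0.154 and 0.135 at 200 µE. Its mean difference of 0.80 rested on replicate 4, where the pair difference was 2.21 against 0.29 to 0.37 in the other pairs.

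The remaining genes are given by their mean log2 differences. AT1G07040 and AT2G36920 had 1.02 and 0.87, and AT1G71910 had 0.84. AT1G42960 and AT4G03150 both had 0.75, AT4G08630 had 0.73, and AT1G55440 and AT5G02710 had 0.64 and 0.62. AT2G20920, AT1G50000, AT4G18540 and AT1G03810 lay between 0.67 and 0.57, and AT1G65090, AT1G73470 and AT1G73740 between 0.56 and 0.51. AT1G07970 had 0.48, AT3G12000 0.45 and AT2G33180 0.45. AT1G07040 had pair differences of 0.33, 1.10, 1.46 and 1.18, the first far below the others, while AT2G33180 stayed between 0.39 and 0.50.

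**Figure D3:**
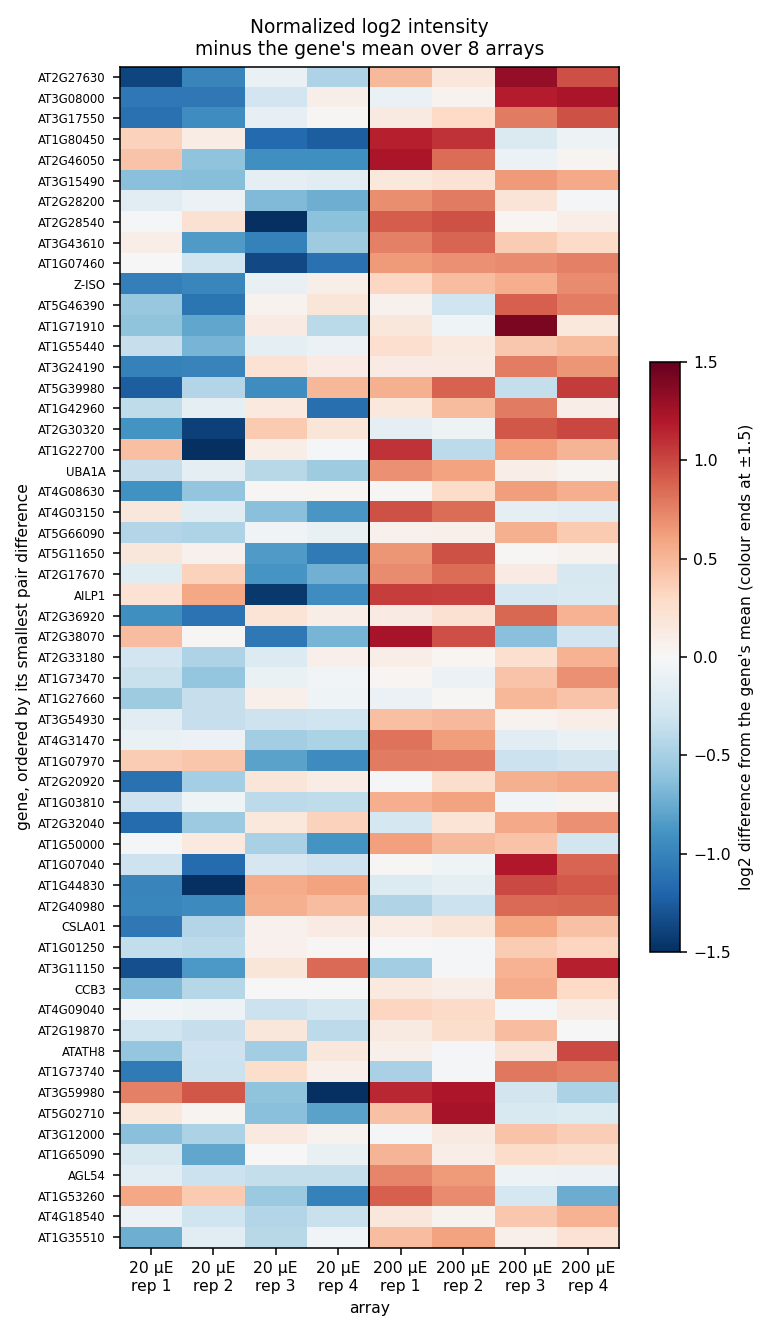
Normalized log2 intensity of the 57 genes (rows) on the 8 arrays (columns), each row minus its own mean, with blue below and red above that mean. The right block of 200 µE arrays is redder within every replicate number, and many rows, such as AT3G59980 and AT1G44830, also differ between replicates 1 and 2 and replicates 3 and 4.

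In 19 of the 57 genes every array at 200 µE was above every array at 20 µE, a pattern that 5.77% of the 2600 probes showed. The rule chose on the same contrast, so nothing is read from that count. In the other 38 genes the groups overlapped. In 24 of these 38 the mean log2 level differed more between replicates 1 and 2 and replicates 3 and 4 than between the light levels, which could not occur in the 19, since groups that do not overlap fix it. The level gap between the sets was above 1 on the log2 scale for 12 genes. It was widest for AT3G59980, which was 2.02 higher in replicates 1 and 2, and for AT1G44830, which was lower there, by −1.54. Replicates 3 and 4 had the higher level for 33 of the 57 genes, or 57.9%, against 46.7% of the 2600 probes. Among all 298 probes past the threshold, which include the 57, the share was 56.0%, so this is not particular to the 57.

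The size of the light difference also varied with the set of replicates. The median over the 57 genes was 0.81 in replicates 1 and 2 and 0.56 in replicates 3 and 4, while over the 2600 probes it was −0.02 and −0.05. For 28 genes, or 49.1%, both differences in replicates 1 and 2 were larger than both in replicates 3 and 4, for 8 genes, or 14.0%, the reverse held, and 21 were mixed. Among all 298 probes past the threshold, which include the 57, these shares were 37.6% and 18.1%, and among the 2600 probes 33.8% and 24.9%. AT5G39980, Z-ISO, AT3G24190 and AGL54 were among the 28. AT1G07460, AT4G18540 and AT1G07040 were among the 8, with means of 0.81, 0.30 and 0.71 in replicates 1 and 2 and of 1.97, 0.85 and 1.32 in replicates 3 and 4. Pair 4 held the smallest of the 4 differences for 23 of the 57 genes and for 99 of the 298 probes, and pair 2 the largest for 21 and for 99. The difference between the sets was not tested.

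**Figure D4:**
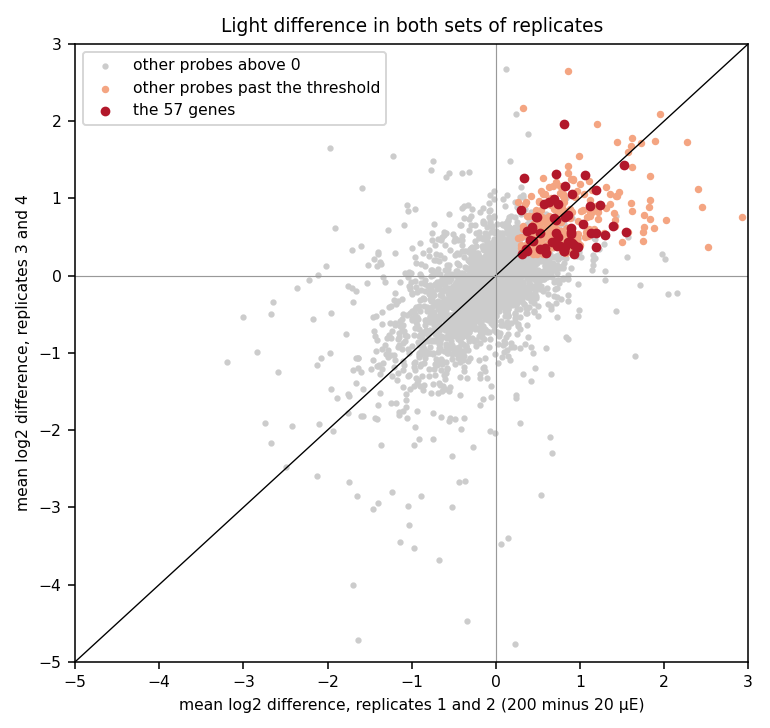
Mean log2 difference between 200 and 20 µE in replicates 1 and 2 (x axis) and in replicates 3 and 4 (y axis) for the 2600 probes above 0 on all arrays, with the diagonal as a line. The 57 genes (dark red) and the other probes past the threshold (orange) fill the upper right corner by the rule; more of the 57 lie below the diagonal, where the difference was larger in replicates 1 and 2.

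The 57 genes were unevenly spread over probe brightness. When the 483 probes were put in 4 equal classes of brightness, 6 of 121 in the dimmest class, or 4.96%, were members, and in the next classes 17 of 121, 16 of 120 and 18 of 121. The median difference of the eligible probes was −0.27 in the dimmest class after normalization, against −0.05, 0.10 and 0.10 in the others. In the deposited values these medians were 0.97, 0.92, 0.96 and 0.80 from the dimmest to the brightest class, so the dimmest was not the lowest there. After normalization the members' own medians were 0.66, 0.75, 0.70 and 0.58. Whether the low share among dim probes comes from the normalization was not tested.

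By chromosome, 19 of 125 eligible genes on chromosome 1 and 15 of 86 on chromosome 2 were members, or 15.2% and 17.4%. Chromosomes 3, 4 and 5 held 9 of 95, 6 of 79 and 8 of 96, or 9.47%, 7.59% and 8.33%. No 2 members were direct neighbours, and the closest pair, AT1G73470 and AT1G73740, had 28 protein-coding genes between them. Only genes on the 483 eligible probes could be members, so nothing about clustering is read from this spacing.

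The 57 were chosen for lying above the rest, so higher values under other scalings were largely fixed by the rule. In the deposited values, with no normalization added here, their median difference was 1.60 against 0.82 for the 2600 probes. The range was 0.88 (AT1G01250) to 3.09 (AT2G27630). Every array has a deposited maximum of 100, so these values may already be scaled or capped within each array. All 57 kept the threshold there in every pair, but so did 65.4% of the 2600 probes. With each array centred on its median, the medians were 0.75 and −0.03, and 45 of the 57 kept the threshold. Centring shifts every mean difference by the same amount, so the distance between these medians is that of the deposited values. With cyclic loess the medians were 0.80 and 0.03, and 50 genes kept the threshold. No gene had a negative mean under any of these scalings, and 42 genes kept the threshold under both centring and loess.

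The 12 genes that fell below the threshold with median centring were bright ones, at percentiles 64.2 to 89.0 of probe brightness, and 11 of the 18 members in the brightest class were among them. AT1G01250 went from 0.34 to 0.04 and AT5G66090 from 0.54 to 0.23. AT2G32040, the folate and biopterin transporter gene, went from 0.60 to 0.31, with a smallest pair difference of −0.17. AT1G22700, AGL54, AT2G30320 and AT2G19870 were also among the 12, at 0.64, 0.51, 0.68 and 0.34. AT1G07970, AT2G32040, AT2G40980 and AT3G11150 missed the threshold under both centring and loess. Z-ISO, CCB3, AT5G46390, AT3G24190 and ATATH8 kept it under both, with 1.0, 0.62, 0.90, 0.66 and 0.85 under centring.

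**Figure D5:**
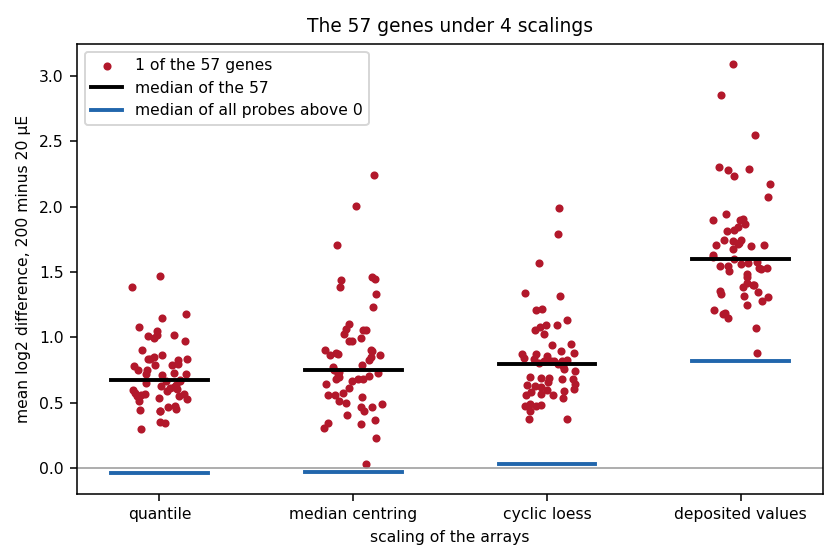
Mean log2 difference between 200 and 20 µE (y axis) of the 57 genes under 4 scalings of the arrays (x axis), with 1 point per gene, the median of the 57 as a black line and the median of all probes above 0 as a blue line. The black line lies above the blue one under each scaling, which the choice of the genes largely fixed. With median centring 1 gene comes down to 0.04.

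In limma's fit over all 3439 probes, 2.30% were called as higher at 200 µE (adjusted p under 0.05) and 3 of the 57 were among them, AT1G07460, AT3G54930 and AT4G18540. With the replicate number as a block 7.91% of the probes and 36 of the 57 were called as higher. The rule used that contrast and that pairing, so these counts describe the fit and support nothing about the genes.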

How the data were processed

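Total RNA of 8 samples was measured on 8 single-channel arrays, 4 per light level, with groups and replicate numbers 1 to 4 taken from the labels. The deposited values are intensities for 3439 probes on a linear scale, with 0 on 476 to 604 probes per array and a maximum of 100 on each. No source used here says how the authors obtained them (not given). The number of arrays limits the precision. Values at 0 were set to the array's lowest positive value, the arrays were quantile normalized over all probes and log2 was taken (limma 3.58.1, R 4.3.3). The same data were fitted with lmFit and eBayes, two-sided, p-values were adjusted over all probes (Benjamini-Hochberg), and the fit was tested on simulated data. The simulated arrays had independent noise, without the shared deviations between replicates described below. They therefore do not show how the fit performs on the real arrays.

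The platform annotation names 1 gene on 692 probes and several on 870, and leaves 1877 unnamed here. All 57 members matched the RefSeq table of assembly TAIR10.1, used for names, chromosomes and gene order only. The planned keyword classes of gene function could not be formed, since 65 of the 692 probes have a name in words in that table, and promoter sequences were not used here. All members are named. Values by array are given for the 4 with the largest and the 4 with the smallest minimum pair difference, the brightest, the dimmest, the most even and uneven, and, added after values were seen, for some of the genes with a known role. The members, lists and sets of replicates were chosen with earlier results of these data known.

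Same-numbered arrays of both light levels deviated together from their group means over 2600 probes (r from 0.707 to 0.735 in the 4 pairs). The correlation was 0.444 to 0.462 for arrays of other numbers within replicates 1 and 2 or within 3 and 4. Across these sets it was −0.623 to −0.556. Deviations from a group mean cancel within the group, so these negative values follow from the positive ones and add no separate evidence. The rule had already set equal numbers as pairs. The data show this pairing, and the labels do not state it. Other scalings, floors, filters, thresholds and subsets of arrays were tried.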

Additional observations from a re-analysis of the deposited data

Results flagged for a closer look

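The 57 genes gave 114 groups of 4 arrays, in 3 of which a single array lay far from the others of its light level, where chance gives about 1 in 20. The gap of that array was taken on the log2 scale, as a share of the range of the 4 log2 values, while the values below are linear normalized intensities. AT1G71910 was high on replicate 3 at 200 µE, at 1.19 against 0.424 to 0.499, with a log2 gap of 0.841 of the range. AT1G22700, the photosystem I assembly gene, was low on replicate 2 at 20 µE, at 0.2 against 1.01 to 1.40 (log2 gap of 0.833 of the range). AT1G07040 was low on replicate 2 at 20 µE, at 0.178 against 0.319 to 0.332 (log2 gap of 0.934 of the range).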

How the results depend on the processing

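The number of genes meeting the rule stayed within 1.5 times of 57 with median centring, cyclic loess, quantile normalization over probes above 0, a common floor, the lowest 25% of probes left out, and the brightest probes or the named genes kept. It was 355 in the deposited values, 94 and 21 with thresholds of 0.1 and 0.5, 115 with replicates 1 and 2 only, 103 with replicates 3 and 4 only, and 66 to 72 without any 1 replicate number. Fewer pairs to pass make the rule easier. Similar counts did not mean equal lists. Of the 70 genes under median centring 45 were among the 57, and of the 67 under cyclic loess 50. The common floor and the filter on the lowest 25% of probes returned the same 57 genes, with almost unchanged values. These settings therefore say little about the count. The members' median difference was 0.67 to 0.73 without any 1 replicate number and 1.60 in the deposited values. No member's mean difference changed sign under any setting run, but the rule largely fixed this. Every pair of a member had to differ by more than 0.25, so leaving out replicate numbers could hardly turn a mean negative. In the deposited values the median difference over the 2600 probes was itself 0.82. The lack of sign changes therefore says little about the light difference. Of 684 single values, 96 moved by more than the SD of the gene's pair differences, 56 of them in the deposited values. The count of probes called by limma, 235, became 619 with the replicate block, 927 in the deposited values, 637 with replicates 3 and 4 only, 125 with quantile normalization over probes above 0, 146 without the lowest 25% of probes, and 140 to 174 without any 1 array, lowest without replicate 3 or 4 at 20 µE. The cause was not tested. Dim probes near the array floor, such as that of AT3G59980, limit the precision of single pairs.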
